A study of Mus musculus with 4 samples.

Results

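The clones described here use TRBV14 or TRBV15, a pair of neighbouring V segments of the mouse T cell receptor β (TCRβ) locus whose products are the Vβ13 and Vβ12 families. A clone, in these data, is one distinct TCRβ sequence from framework region 1 to framework region 4, and it was taken as a member when the first V segment listed for it, without the allele, was TRBV14 or TRBV15. This gave 31150 of 382531 TCRβ clones over 4 libraries (8.14%), which held 140497 of 1798641 reads (7.81%). TRBV14 accounted for 9428 clones and 38738 reads, and TRBV15 for 21722 clones and 101759 reads. Each member clone listed a single V segment, so that no member was shared with another segment.

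The libraries were made by TCR SMART-seq, which copies full-length V regions from RNA, from CD4 T cells of the spleen at an average age of 25 days, in 2 biological replicates of wild type (WT) and 2 of Tet2/3 DKO. WT mice were B6. Tet2/3 DKO mice were Tet2-/- in every tissue and Tet3 fl/fl with CD4Cre, which deletes Tet3 only in T cells from the stage at which the CD4 promoter is active in the thymus. In both genotypes B cells were depleted, and the sort kept CD4 cells with surface TCRβ and removed cells with CD25 and the invariant NKT cells that bind the αGalCer-CD1d tetramer. The tables hold TCR chains alone, so that the sorted cell type could not be checked against marker genes. The 4 libraries are called WT 1, WT 2, Tet2/3 DKO 1 and Tet2/3 DKO 2 by the number of the biological replicate.

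A TCRβ chain is built in the thymus by joining one V, one D and one J segment, with loss of bases at the ends and addition of untemplated bases by terminal transferase. The V segment encodes the CDR1 and CDR2 loops, which mostly touch the MHC molecule, and the start of the CDR3 loop, which mostly touches the peptide. A superantigen binds the side of the Vβ domain and so engages every T cell of a Vβ family, whatever its CDR3. In mice that carry endogenous mammary tumour virus superantigens and MHC class II I-E, T cells with Vβ5 (TRBV12-1 and TRBV12-2), Vβ11 (TRBV16) and Vβ12 (TRBV15) are lost in the thymus. B6 mice carry no functional I-E, and such families remain in their repertoire. TET proteins oxidise 5-methylcytosine and so promote DNA demethylation. The comparison of genotypes asks whether loss of TET2 and TET3 changes which Vβ families the peripheral CD4 T cells use.

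In the RefSeq annotation of GRCm38.p6, the build that the labels name as mm10, Trbv14 lies at chr6:41135167-41135616 and Trbv15 at chr6:41141211-41141658, both annotated as V segments. Their ends are 5594 bp apart, with no other annotated TRBV segment between them. The V part of each segment, from framework region 1 to the last V base, is shown. It holds the germline-encoded loops on which the families differ. The most abundant sequence before CDR3 is joined here to the most abundant V end among clones that lost no V base. CDR1, CDR2 and the start of CDR3 are in capitals.
TRBV14: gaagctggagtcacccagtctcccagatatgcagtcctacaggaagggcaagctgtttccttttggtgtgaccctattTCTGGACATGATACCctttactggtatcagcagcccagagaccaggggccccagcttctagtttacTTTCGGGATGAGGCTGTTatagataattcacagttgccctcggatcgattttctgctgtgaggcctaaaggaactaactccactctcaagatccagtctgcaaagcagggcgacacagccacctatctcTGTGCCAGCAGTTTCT
TRBV15: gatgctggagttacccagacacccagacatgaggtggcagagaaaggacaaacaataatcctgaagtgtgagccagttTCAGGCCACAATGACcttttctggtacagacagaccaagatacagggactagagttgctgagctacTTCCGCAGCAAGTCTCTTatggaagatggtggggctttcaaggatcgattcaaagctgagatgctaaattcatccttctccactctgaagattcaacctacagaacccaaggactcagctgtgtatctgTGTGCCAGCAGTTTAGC

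Both V parts had 273 bases before CDR3, of which 164 were identical (60.1%). Framework region 1 was the most alike of the regions, with 52 of 78 bases identical (66.7%), and CDR2 the least alike, with 10 of 18 (55.6%). The loops read SGHDT and FRDEAV in TRBV14 and SGHND and FRSKSL in TRBV15. The V part of CDR3 was 16 bases long in TRBV14 and 17 in TRBV15. Its first 14 bases were the same in both segments, and they parted within codon 5 of CDR3, which is TTC for phenylalanine in TRBV14 and TTA for leucine in TRBV15. The 273 bases before CDR3, as printed, stood for 95.02% of the TRBV14 reads and 95.3% of the TRBV15 reads with intact framework regions. These shares do not cover the V end.

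One of the libraries stood apart for TRBV15. Tet2/3 DKO 2 had the highest TRBV15 share of the 4 libraries on every measure of usage below, and the edgeR comparisons of TRBV15 below are given with and without it. It was also the deepest library, with 569678 TCRβ reads against 365421 in WT 1, 454098 in WT 2 and 409444 in Tet2/3 DKO 1. The numbers of TCRβ clones were 81127, 100455, 96932 and 104017 in WT 1, WT 2, Tet2/3 DKO 1 and Tet2/3 DKO 2. Without molecular identifiers in the kit, PCR copies of one molecule cannot be told from separate molecules, and the 95% Wilson confidence intervals given for shares cover counting error only.

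TRBV15 was used at a similar level in 3 of the 4 libraries and was higher in Tet2/3 DKO 2. Its share of reads was 4.53% in WT 1 (95% interval 4.46% to 4.59%), 4.68% in WT 2 (4.62% to 4.74%) and 4.60% in Tet2/3 DKO 1 (4.53% to 4.66%), but 7.92% in Tet2/3 DKO 2 (7.85% to 7.995%). As a share of clones, TRBV15 stood at 5.06% in WT 1, 5.10% in WT 2, 4.95% in Tet2/3 DKO 1 and 7.39% in Tet2/3 DKO 2. The groups overlapped on both measures, since Tet2/3 DKO 1 lay below WT 2 by reads and below both WT libraries by clones. By edgeR over 24 TRBV segments, the log2 fold change of Tet2/3 DKO over WT was 0.44 by reads (SE 0.22, adjusted p = 0.416) and 0.28 by clones (SE 0.22, adjusted p = 0.697). None of the 24 segments passed the adjusted threshold of 0.05 in these fits (0% by reads and 0% by clones). At an unadjusted p below 0.05 there were 3 segments by reads (12.5%) and 0 by clones, TRBV15 not among them, and DESeq2 called 1 segment by reads and 0 by clones, neither of them a member.

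The TRBV15 difference rested on one library. Without Tet2/3 DKO 2, the edgeR log2 fold change fell to -0.0019 by reads and -0.04 by clones, with adjusted p = 0.999 and adjusted p = 0.910. Without Tet2/3 DKO 1 it was 0.78 by reads (adjusted p = 5.93e-06) and 0.54 by clones (adjusted p = 2.61e-09). That fit has a lone Tet2/3 DKO library, assumed to vary as little as the WT pair does, and it called 8 of 24 segments by reads (33.3%) and 10 of 24 by clones (41.7%). It therefore compares Tet2/3 DKO 2 with WT and not the genotypes.

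TRBV14 was the rarer segment, and no library stood as far apart for it. It held 2.06% of reads in WT 1 (95% interval 2.02% to 2.11%), 2.14% in WT 2 (2.10% to 2.18%), 2.43% in Tet2/3 DKO 1 (2.38% to 2.48%) and 2.02% in Tet2/3 DKO 2 (1.99% to 2.06%). By clones TRBV14 stood at 2.46% in WT 1, 2.50% in WT 2, 2.64% in Tet2/3 DKO 1 and 2.28% in Tet2/3 DKO 2. The Tet2/3 DKO libraries lay on either side of the WT pair on both measures. By reads, the interval of Tet2/3 DKO 1 lay above those of the other libraries. The edgeR log2 fold change was 0.08 by reads (SE 0.19, adjusted p = 0.887) and -0.01 by clones (SE 0.10, adjusted p = 0.997). By reads it was -0.05 without Tet2/3 DKO 1 and 0.21 without Tet2/3 DKO 2. Among the 24 TRBV segments, TRBV14 ranked 14th by mean share of reads and TRBV15 ranked 7th.

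**Figure D1:**
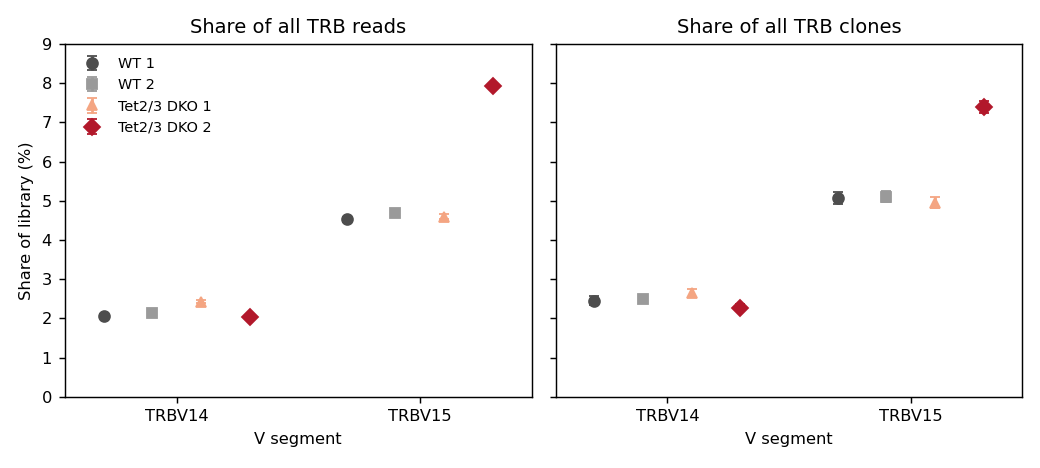
Share of TRBV14 and TRBV15 in each library, in percent of all TCRβ reads (left) and of all TCRβ clones (right), with 95% Wilson intervals that are mostly smaller than the symbols. TRBV15 sits between 4.53% and 4.68% of reads in 3 libraries and at 7.92% in Tet2/3 DKO 2, whereas TRBV14 stays between 2.02% and 2.43% in all 4.

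Large clones carried part of the TRBV15 reads of Tet2/3 DKO 2. The largest TRBV15 clone had 416 reads in WT 1, 285 in WT 2 and 156 in Tet2/3 DKO 1, and 3923 in Tet2/3 DKO 2, where it made up 8.69% of the TRBV15 reads and 0.689% of all TCRβ reads. The 10 largest TRBV15 clones held 7.26% and 4.76% of the segment's reads in WT 1 and WT 2, 2.54% in Tet2/3 DKO 1 and 18.8% in Tet2/3 DKO 2. TRBV15 supplied 2 of the 10 largest TCRβ clones of Tet2/3 DKO 2 and 0 in each other library. For TRBV14 the largest clone had 107, 124, 115 and 472 reads in WT 1, WT 2, Tet2/3 DKO 1 and Tet2/3 DKO 2. Its 10 largest clones held 4.83%, 4.36% and 4.76% of TRBV14 reads in the first 3 libraries and 18.6% in Tet2/3 DKO 2. Large clones were thus prominent in that library for both segments, while the share of TRBV14 was not raised. Without its 10 largest clones, TRBV14 held 1.964% of reads in WT 1, 2.05% in WT 2 and 2.32% in Tet2/3 DKO 1. In Tet2/3 DKO 2 it held 1.65%, the lowest share, against 2.02% with them. Clones of the other TRBV segments had 4.55, 4.56 and 4.25 reads on average in the first 3 libraries and 5.46 in Tet2/3 DKO 2.

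The CDR3 of these clones is given to show what the large clones were. Bases assigned to V or J are in lower case, and those between them (D and added bases) are in capitals.
TRBV15, TRBJ2-2, WT 1: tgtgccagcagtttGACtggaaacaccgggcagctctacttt
TRBV15, TRBJ1-4, WT 2: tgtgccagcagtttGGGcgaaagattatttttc
TRBV15, TRBJ2-4, Tet2/3 DKO 1: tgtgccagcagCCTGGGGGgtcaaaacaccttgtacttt
TRBV15, TRBJ1-1, Tet2/3 DKO 2: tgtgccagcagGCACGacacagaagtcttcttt
TRBV14, TRBJ2-5, WT 1: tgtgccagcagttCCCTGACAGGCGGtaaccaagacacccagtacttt
TRBV14, TRBJ2-1, WT 2: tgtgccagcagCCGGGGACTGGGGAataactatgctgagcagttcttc
TRBV14, TRBJ2-1, Tet2/3 DKO 1: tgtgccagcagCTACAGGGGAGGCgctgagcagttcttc
TRBV14, TRBJ2-2, Tet2/3 DKO 2: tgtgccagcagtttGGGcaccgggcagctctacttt

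The largest TRBV15 clone of Tet2/3 DKO 2, with the CDR3 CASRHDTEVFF, kept 11 V bases and had 5 bases between V and J. It was the 3rd largest TCRβ clone of that library, and its V, J and CDR3 amino acid sequence had 0 reads in the other 3 libraries. In Tet2/3 DKO 2, 19 clones had this V, J and CDR3 nucleotide sequence and differed from each other outside CDR3, and together they held 4110 reads. By contrast, the largest TRBV15 clone of Tet2/3 DKO 1, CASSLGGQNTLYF, had its amino acid sequence in the 3 other libraries as well, with 118 reads there. The largest TRBV14 clones of WT 1, WT 2 and Tet2/3 DKO 1 were seen in their own library alone. The CDR3 of the largest TRBV14 clone of Tet2/3 DKO 2, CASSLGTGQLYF, had 4 reads in 2 other libraries.

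The excess of TRBV15 in Tet2/3 DKO 2 remained once large clones were left out. Without its own largest clone, TRBV15 held 4.42% of reads in WT 1, 4.62% in WT 2, 4.56% in Tet2/3 DKO 1 and 7.29% in Tet2/3 DKO 2. Without the 10 largest TRBV15 clones the values were 4.21%, 4.47%, 4.49% and 6.53% in the same order. On this last measure the groups no longer overlapped, but Tet2/3 DKO 1 lay just above WT 2, and the exact two-sided permutation test gave p = 0.33, the smallest value that 6 assignments of the labels allow. With its own 10 largest clones left out in the same way, 4 of 22 TRBV segments had groups that did not overlap and were higher in Tet2/3 DKO (18.2%). The excess was seen among clones of every size, although small clones may include sequence variants of a large one. With clones of the same V, J and CDR3 merged, TRBV15 was 5.14% of clones in WT 1 and 5.23% in WT 2. It was 5.05% in Tet2/3 DKO 1 and 7.31% in Tet2/3 DKO 2. TRBV15 was 5.12%, 4.92% and 4.83% of the clones with a single read in WT 1, WT 2 and Tet2/3 DKO 1 and 7.29% in Tet2/3 DKO 2. Among clones with 20 or more reads it was 3.02%, 3.07% and 4.10% in the first 3 libraries and 7.54% in Tet2/3 DKO 2, where 129 of 1712 such clones used it.

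The excess also spanned the J partners and CDR3 lengths. All 12 TRBV15-TRBJ pairs had their highest share of TCRβ clones in Tet2/3 DKO 2, whereas this held for 98 of all 269 V-J pairs (36.4%) and for 2 of the 12 TRBV14 pairs. The ratio of the Tet2/3 DKO 2 share to the mean of the 3 other libraries had a median of 1.47 over the TRBV15 pairs, from 1.20 for TRBJ2-3 to 1.75 for TRBJ1-3, and a median of 0.902 over the TRBV14 pairs. With reads, all 12 TRBV15 pairs were again highest in Tet2/3 DKO 2, against 89 of all 285 pairs (31.2%). In CDR3 classes from 11 or fewer to 16 or more amino acids, TRBV15 was highest in Tet2/3 DKO 2 in each of them, for example 10.4% against 7.17%, 7.52% and 7.23% of clones with 13 amino acids. Among distinct in-frame chains, each V, J and CDR3 amino acid sequence counted once, TRBV15 was 5.17% and 5.23% in WT, 5.06% in Tet2/3 DKO 1 and 7.13% in Tet2/3 DKO 2.

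Out-of-frame rearrangements were counted apart. They encode no β chain, and a cell that carries one has another rearrangement that is expressed. Of out-of-frame TCRβ clones, TRBV15 made up 4.64% in WT 1 (139 of 2998, 95% interval 3.94% to 5.45%), 4.696% in WT 2 (157 of 3343, 4.03% to 5.47%), 3.82% in Tet2/3 DKO 1 (132 of 3458, 3.23% to 4.51%) and 5.43% in Tet2/3 DKO 2 (198 of 3647, 4.74% to 6.21%). Tet2/3 DKO 2 was again highest. Its interval lay above that of Tet2/3 DKO 1 and overlapped those of both WT libraries. Of in-frame clones, TRBV15 made up 5.13%, 5.17%, 5.03% and 7.54% in the same order. The edgeR log2 fold change of TRBV15 over out-of-frame clones was -0.01 (SE 0.17, adjusted p = 0.970), and over in-frame clones 0.29 (SE 0.24, adjusted p = 0.702). Without Tet2/3 DKO 2 these were -0.29 (adjusted p = 0.620) and -0.03 (adjusted p = 0.959). The difference between the frames was not tested. Sequencing errors that shift the frame would place a productive clone in the out-of-frame class, and their part in these values was not tested.

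**Figure D2:**
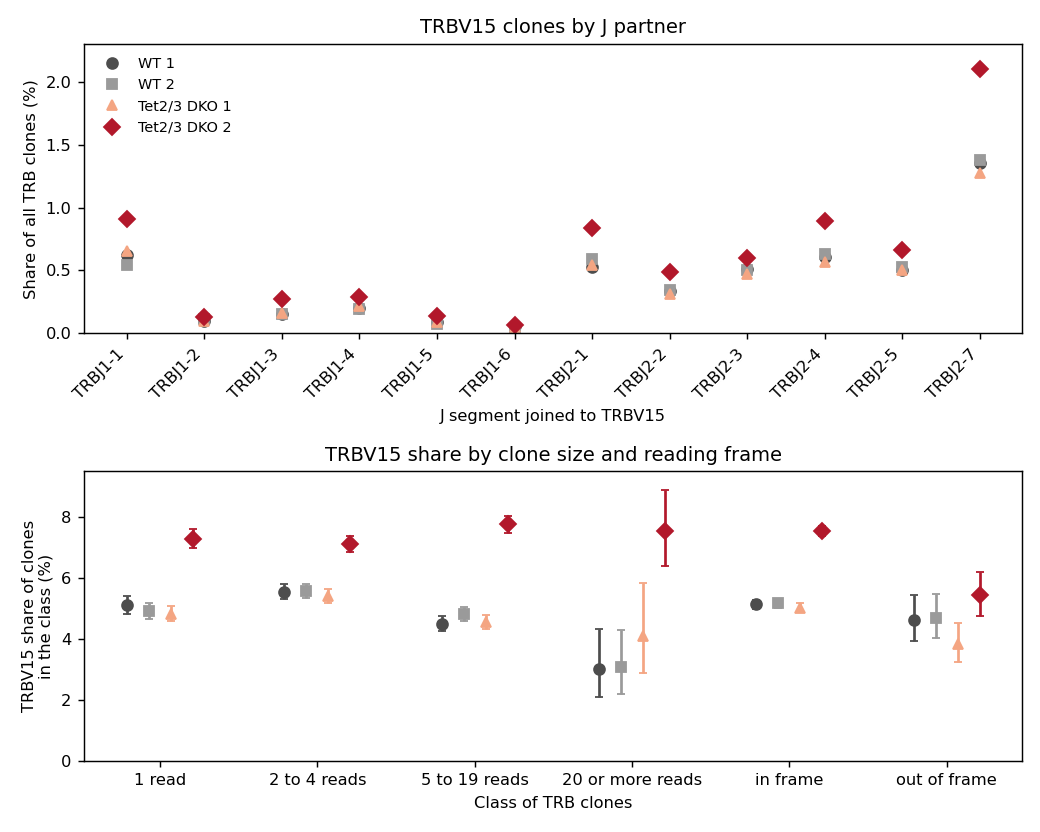
TRBV15 usage by library. The upper panel gives the share of all TCRβ clones held by each TRBV15-TRBJ pair, and the lower panel the TRBV15 share among clones of each read count and frame with 95% Wilson intervals. Tet2/3 DKO 2 is highest for all 12 J partners, and among the 6 classes drawn its lead over the next library, in percentage points, is smallest out of frame, where TRBV15 is 5.43% against 3.82% to 4.696%.

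By the edgeR fit over V-J pairs, 0 of the 24 TRBV14 and TRBV15 pairs passed the adjusted threshold by clones or by reads, against 0 of 269 (0%) and 0 of 285 (0%) among all pairs. At an unadjusted p below 0.05 there was 1 member pair by clones and 4 by reads, where the background was 6.69% and 10.2%. TRBV15-TRBJ1-1, the pair of the 3923-read clone, had the smallest p among the member pairs by reads. It held 0.569% and 0.481% of reads in WT against 0.580% and 1.54% in Tet2/3 DKO, with a log2 fold change of 1.02 (SE 0.31, adjusted p = 0.154). By clones it held 0.622% and 0.544% in WT against 0.652% and 0.906% in Tet2/3 DKO, with a log2 fold change of 0.42 (SE 0.17, adjusted p = 0.592). The values without Tet2/3 DKO 2 were 0.14 by reads (adjusted p = 0.968) and 0.17 by clones (adjusted p = 0.644). Without Tet2/3 DKO 1, 9 member pairs were called by clones, all of them TRBV15 pairs, against 76 of all 266 pairs (28.6%). By reads 8 were called, 7 TRBV15 pairs and TRBV14-TRBJ1-3, against 50 of all 284 pairs (17.6%). No member pair was called without Tet2/3 DKO 2.

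The segments of Vβ5 and Vβ11, which share I-E-dependent deletion with Vβ12, were also highest in Tet2/3 DKO 2. TRBV12-1 held 1.12%, 1.20%, 1.18% and 2.02% of reads in WT 1, WT 2, Tet2/3 DKO 1 and Tet2/3 DKO 2, and TRBV12-2 held 1.35%, 0.972%, 0.949% and 2.19%. TRBV16, the next V segment after TRBV15 on the chromosome, held 2.197%, 2.67%, 2.81% and 4.39%. TRBV15 itself is on this list, which was drawn up with earlier results of these data known, so that its counts are a description and no independent evidence. All 4 segments of the list were highest in Tet2/3 DKO 2 by reads and by clones, against 9 of all 24 TRBV segments (37.5% on both measures). The median ratio of the Tet2/3 DKO 2 share to the mean of the other libraries was 1.73 by reads and 1.79 by clones over the list, and 0.961 and 0.987 over all 24. Summed, the list held 9.19%, 9.52% and 9.54% of reads in the first 3 libraries and 16.5% in Tet2/3 DKO 2. Families deleted by other superantigens are not on the list. Segments of such families, named after their values were seen, went both ways. By reads the ratio was 1.28 for TRBV19 (Vβ6) and 1.05 for TRBV26 (Vβ3), both highest in Tet2/3 DKO 2 by reads and by clones, and 0.899 for TRBV17 (Vβ9), 0.819 for TRBV13-3 (Vβ8.1) and 0.779 for TRBV29 (Vβ7). Of 11 listed segments between TRBV12-1 and TRBV20, TRBV14 and TRBV15 among them and TRBV12-3 and TRBV18 not, 5 were highest in Tet2/3 DKO 2, with a median ratio of 0.995 by reads, and TRBV14 had a ratio of 0.916. The MHC haplotype and the superantigens of each mouse were not measured, and their part in these shares was not tested.

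**Figure D3:**
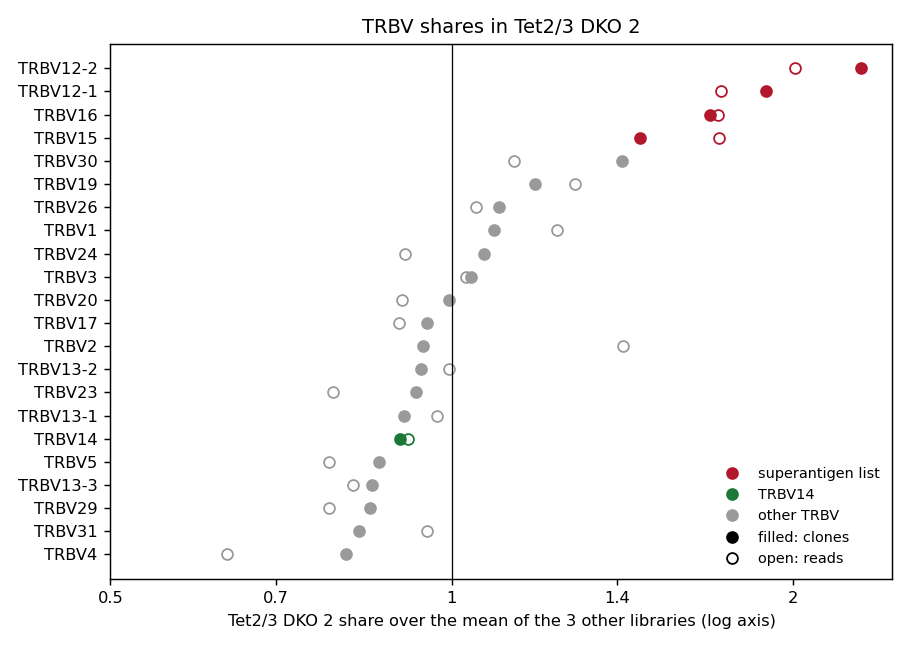
Ratio of the share of each TRBV segment in Tet2/3 DKO 2 to its mean share in the 3 other libraries, on a log axis, by clones (filled) and by reads (open), for the 22 segments with the most reads. The 4 segments of the superantigen list take the 4 highest ratios by clones, from 1.47 for TRBV15 to 2.297 for TRBV12-2, while TRBV14 lies at 0.900. TRBV30, which is not on the list, comes next by clones at 1.41. By reads TRBV2, also not on the list, comes next after the list at 1.42.

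Over the 4 libraries, the segment whose read shares ran most like those of TRBV15 was TRBV12-1, with a root mean square difference of 0.021 in log2(share / mean share), followed by TRBV16 (0.120) and TRBV2 (0.179). For TRBV14 the nearest were TRBV31 (0.090), TRBV13-1 (0.101) and TRBV13-2 (0.112). Ranked instead by the J segments they join, as the share of clones that would have to change J partner, TRBV15 was nearest to TRBV3 (9.43%), TRBV16 (9.55%) and TRBV23 (10.3%), and TRBV14 to TRBV23 (6.20%), TRBV13-1 (7.11%) and TRBV13-2 (7.78%). These likenesses rest on the same 4 libraries and describe them only.

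The segments joined J segments in different proportions. The order of the partners is that of the mean over the 4 libraries and varied between them. TRBJ2-7 was the first partner of both, with 21.4% of TRBV14 clones (range over libraries 20.8% to 22.3%) and 26.9% of TRBV15 clones (25.7% to 28.4%), against 21.4% of clones with other TRBV segments. The second partner of TRBV14 was TRBJ2-5 at 18.8% (18.1% to 19.4%), where TRBV15 had 9.87% (8.99% to 10.4%) and the other segments 13.8%. The second partner of TRBV15 was TRBJ1-1 at 12.1% (10.6% to 13.2%), where TRBV14 had 6.64% (5.54% to 7.33%) and the other segments 7.79%. TRBJ2-4 was next by mean share, at 11.96% of TRBV14 and 12.001% of TRBV15 clones. For TRBV14 it was close to TRBJ2-1 at 11.92%, which was the higher of the pair in 3 of 4 libraries, and for TRBV15 in WT 2 both TRBJ2-4 (12.37%) and TRBJ2-1 (11.59%) were above TRBJ1-1 (10.65%). The rarest partner was TRBJ1-5 for TRBV14 (1.91%, range 1.46% to 2.32%) and TRBJ1-6 for TRBV15 (0.964%, range 0.819% to 1.10%), although in Tet2/3 DKO 2 TRBJ1-6 (1.52%) was rarer than TRBJ1-5 (2.32%) for TRBV14. Both segments joined the TRBJ2 cluster more often than the other TRBV segments pooled, TRBV14 in 78.1% of clones and TRBV15 in 75.9% against 71.7%. Among 22 segments taken singly they ranked 2nd and 5th, with TRBV17 highest at 83.4%. Weighted by reads, the TRBV15 difference fell from 4.16 to 1.67 percentage points, and in Tet2/3 DKO 2 it turned round, with 67.1% for TRBV15 against 72.8%. Counted by clones, each of these differences from the other segments had one sign in 4 of 4 libraries, except TRBJ2-7 and TRBJ2-4 for TRBV14, and gave p = 0.13 by an exact two-sided sign-flip permutation test, the smallest value that 4 libraries allow (adjusted p = 0.161 over 54 comparisons). The difference of TRBV14 from the other segments in TRBJ2-7 was 0.0069 percentage points (SD 1.07, n = 4) and of mixed sign.

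**Figure D4:**
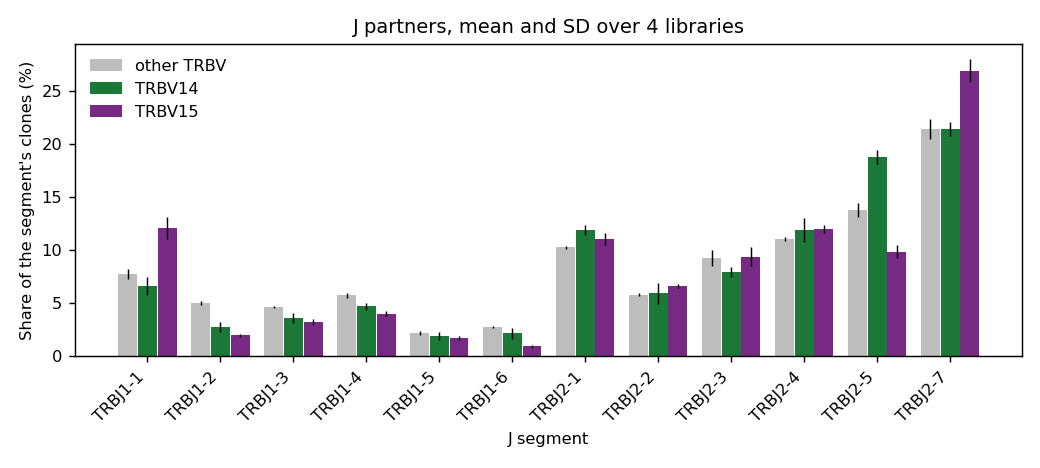
J partners of TRBV14, TRBV15 and all other TRBV segments, as the percent of the clones of each that use a J segment (mean of 4 libraries, error bars 1 SD). TRBV14 stands out at TRBJ2-5 (18.8%) and TRBV15 at TRBJ1-1 (12.1%) and TRBJ2-7 (26.9%).

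TRBV14 and TRBV15 made shorter CDR3s than the other segments pooled. Among 22 segments ordered from the longest they ranked 17th and 20th, with TRBV20 (12.96 amino acids) and TRBV30 (12.73) shorter than both. The mean CDR3 length over in-frame clones was 13.54 amino acids for TRBV14 (13.49 to 13.59 over libraries) and 13.32 for TRBV15 (13.28 to 13.37), against 13.73 for other segments (13.67 to 13.76). The ranges did not overlap, and both segments were shorter in 4 of 4 libraries (sign-flip permutation p = 0.13, adjusted p = 0.161). TRBV15 had its peak at 13 amino acids, with 33.97% to 34.96% of in-frame clones, where other segments had 23.1% to 24.3%. TRBV14 had its peak at 14, as the other segments did. The number of bases between V and J was 9.16 for TRBV14 and 8.78 for TRBV15, against 8.77 for other segments. It was higher for TRBV14 than for the others in 4 of 4 libraries, whereas the TRBV15 difference of 0.015 bases (SD 0.15, n = 4) had no constant sign.

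Loss of V bases was deeper in both segments than in the other segments pooled. Among 22 segments TRBV15 ranked 2nd and TRBV14 ranked 6th, with TRBV4 first at 4.22 bases. On average 3.13 bases were lost from TRBV14 (3.11 to 3.15) and 3.96 from TRBV15 (3.91 to 3.99), against 2.19 in other segments (2.17 to 2.21), with one sign in 4 of 4 libraries (sign-flip permutation p = 0.13). The commonest end was the same point in both sequences, after the 11 bases tgtgccagcag. It was reached by loss of 5 bases in TRBV14, in 27.7% of clones, and of 6 bases in TRBV15, in 25.8%. No V base was lost in 7.44% of TRBV14 clones and 5.48% of TRBV15 clones. After CASS, the residue was phenylalanine in 27.6% of in-frame TRBV14 clones and leucine in 20.3%, and leucine in 34.3% of in-frame TRBV15 clones and phenylalanine in 11.04%. The first residue of each pair is the one its germline codon 5 of CDR3 encodes. V-end loss is read from the match of a clone to its V segment, so that an added base that happens to equal the germline base counts as retained.

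**Figure D5:**
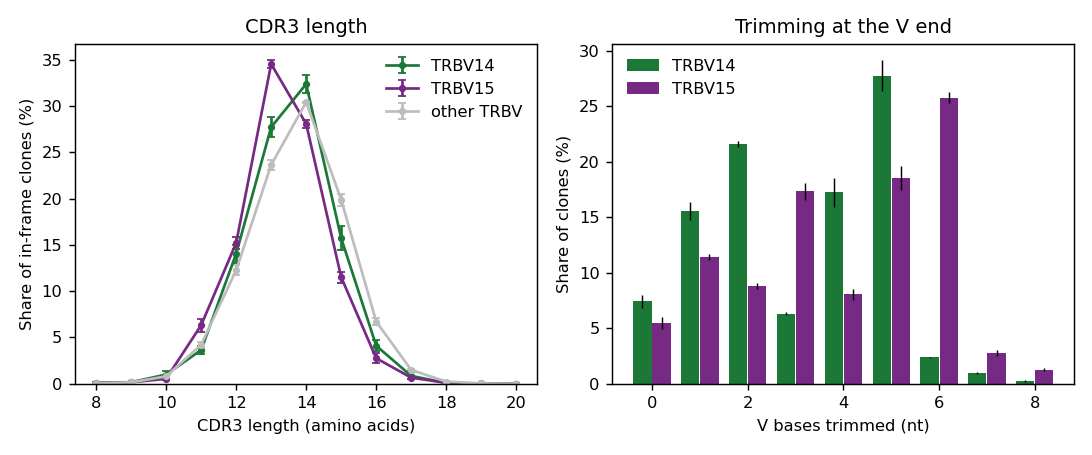
CDR3 length of in-frame clones (left) and number of V bases lost at the junction (right), mean of 4 libraries with error bars of 1 SD. TRBV15 peaks at 13 amino acids and TRBV14 and the other segments at 14, and the commonest loss is 5 bases in TRBV14 and 6 in TRBV15.

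Between genotypes no feature passed a test. Over 12 comparisons (6 features of each segment), the exact permutation test gave no p below 0.33 and no adjusted p below 0.8. These features include the share of public chains, defined below, whose number is fixed across libraries, so that its comparison cannot address genotype. CDR3 length was 13.59 and 13.53 amino acids in WT and 13.56 and 13.49 in Tet2/3 DKO for TRBV14, and 13.29 and 13.35 in WT against 13.37 and 13.28 in Tet2/3 DKO for TRBV15. The TRBJ2 share of TRBV15 clones was 75.8% in WT 1, 77.98% in WT 2, 74.3% in Tet2/3 DKO 1 and 75.5% in Tet2/3 DKO 2, groups that did not overlap. The Tet2/3 DKO minus WT difference was -1.99 percentage points by clones and -6.01 when clones were weighted by reads, and for TRBV14 -1.11 and -3.05. By clones and without WT 2 the differences were -0.898 for TRBV15 and -0.153 for TRBV14, and without WT 1 they were -3.08 and -2.08. By clones and with all 4 libraries, the TRBJ2 shares did not overlap and were lower in Tet2/3 DKO for 11 of 22 TRBV segments, TRBV15 among them (50%). The groups also failed to overlap, lower in Tet2/3 DKO, for V-base loss of TRBV14 (7 of 22 segments, 31.8%) and for its bases between V and J (10 of 22 segments, 45.5%). With 2 libraries per genotype, none of the 12 comparisons could have passed a threshold of 0.05.

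The in-frame share differed between the segments. It was 96.3%, 96.6%, 96.98% and 97.2% of TRBV15 clones in WT 1, WT 2, Tet2/3 DKO 1 and Tet2/3 DKO 2, and 94.98%, 94.8%, 94.3% and 94.6% of TRBV14 clones. Other segments had 94.8%, 95.3%, 95.4% and 95.2%. TRBV15 was above the other segments in 4 of 4 libraries, by 1.58 percentage points on average (SD 0.30, sign-flip permutation p = 0.13), while TRBV14 was below them in 3 of 4, by 0.49 points on average. Weighted by reads, the differences were 0.973 points for TRBV15 and -0.974 for TRBV14. The pooled other segments include TRBV24, with 20.9% of its clones in frame. Among the 22 segments taken singly, TRBV15 ranked 7th by in-frame share and TRBV14 ranked 14th. In the same way TRBV14 was more frequent among out-of-frame clones (2.87% to 4.02% over libraries) than among in-frame clones (2.26% to 2.61%). Between genotypes, the groups did not overlap for either segment, with opposite signs. The out-of-frame share of TRBV15 clones was 3.38% and 3.06% in WT against 2.75% and 2.57% in Tet2/3 DKO (4 of 22 segments had this direction without overlap, 18.2%). That of TRBV14 clones was 4.32% and 4.66% in WT against 5.43% and 4.94% in Tet2/3 DKO (6 of 22 segments, 27.3%). The permutation test gave p = 0.33 for both.

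In-frame chains shared by all 4 libraries, with the same V, J and CDR3 amino acid sequence, are called public here. There were 190 public TRBV15 chains among 13363 in-frame chains and 14 public TRBV14 chains among 6610. In each library, public chains made up 3.54% to 5.96% of the TRBV15 chains and 0.716% to 0.866% of the TRBV14 chains, against 3.61% to 4.36% for other segments. In both segments public chains were shorter than the rest, 12.8 against 13.6 amino acids for TRBV14 and 12.9 against 13.5 for TRBV15. They also had fewer bases between V and J, 6.29 against 9.13 and 6.87 against 8.94. By this definition each library holds the same public chains, so that their share falls as the number of chains of the segment rises. The 190 chains stood among 3189 TRBV15 chains for WT 1 (5.96%) and 3898 for WT 2 (4.87%). They stood among 3658 for Tet2/3 DKO 1 (5.19%) and 5374 for Tet2/3 DKO 2 (3.54%). The exact permutation test of these shares (p = 0.667) thus only compares chain numbers and cannot decide whether sharing differs by genotype. The same holds for TRBV14.

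The 3 public chains of each segment with the most reads are shown by their most abundant nucleotide form, with the bases between V and J in capitals, because they show which bases came from neither V nor J.
TRBV14, TRBJ2-1, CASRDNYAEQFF: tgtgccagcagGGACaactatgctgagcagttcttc
TRBV14, TRBJ2-4, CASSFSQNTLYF: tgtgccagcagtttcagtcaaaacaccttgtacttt
TRBV14, TRBJ2-7, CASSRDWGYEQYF: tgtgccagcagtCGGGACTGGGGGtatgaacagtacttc
TRBV15, TRBJ2-4, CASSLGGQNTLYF: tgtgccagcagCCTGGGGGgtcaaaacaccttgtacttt
TRBV15, TRBJ2-4, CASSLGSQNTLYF: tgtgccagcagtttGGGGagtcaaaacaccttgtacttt
TRBV15, TRBJ2-7, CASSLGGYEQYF: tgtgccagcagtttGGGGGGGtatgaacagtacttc

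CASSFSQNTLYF, in its most abundant form, had 0 bases between V and J. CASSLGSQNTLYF was the most even of these 3 TRBV15 chains, with 75 and 63 reads in WT and 36 and 80 in Tet2/3 DKO, and was encoded by 14 different CDR3 nucleotide sequences. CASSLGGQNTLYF had 39 and 28 reads in WT and 185 and 51 in Tet2/3 DKO, and 13 nucleotide sequences. Its 156-read form, printed above, was found in Tet2/3 DKO 1 alone. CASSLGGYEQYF had 27 and 37 reads in WT and 66 and 37 in Tet2/3 DKO. The TRBV14 chains were smaller. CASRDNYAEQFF had 10 and 18 reads in WT and 11 and 9 in Tet2/3 DKO, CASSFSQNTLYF 14 and 4 against 5 and 15, and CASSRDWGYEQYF 5 and 5 against 11 and 16. Over the libraries these chains had from 3 to 16 different CDR3 nucleotide sequences each.

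Within the V region of TRBV15, a single substitution stood above the rest. Counted from 1 at the first base of framework region 1, A155G lies in CDR2 and turns the lysine of FRSKSL into arginine. The usual and the substituted sequence around it are shown with that base in capitals.
TRBV15, usual base: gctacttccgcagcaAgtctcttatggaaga
TRBV15, A155G: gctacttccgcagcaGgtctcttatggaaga

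A155G was found in 0.304% of TRBV15 reads in WT 1 (95% Wilson interval 0.231% to 0.401%), 0.507% in WT 2 (0.419% to 0.612%), 0.448% in Tet2/3 DKO 1 (0.362% to 0.554%) and 0.469% in Tet2/3 DKO 2 (0.410% to 0.536%), with no split by genotype. The median over all 819 substitutions possible in the TRBV15 V part before CDR3 was 0.003%, and the next most frequent, A65C, had 0.096%. The most frequent substitution of TRBV14, G70T, had 0.172%. Of the 22 TRBV segments with at least 1000 reads, none had a substitution with a higher share of reads than A155G (0.446%, 95% interval 0.407% to 0.489%), although the top substitution of TRBV13-3 (0.416%) lay within this interval. By clones A155G, at 0.572%, was below the top substitutions of TRBV13-3 (1.85%), TRBV13-2 (1.65%), TRBV13-1 (1.62%) and TRBV24 (0.828%). It was carried by 123 clones with 113 combinations of library, J and CDR3 nucleotide sequence, and for 43 of these (38.1%) the same library also held a clone with the usual base. The kit reads RNA, so that a change in the genome, in the RNA or in copying cannot be told apart here. Missing stretches of 20 or more bases inside the V part were rare, in 2 TRBV14 clones and 8 TRBV15 clones.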

How the data were processed

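TCR SMART-seq libraries from splenic CD4 T cells, 2 WT and 2 Tet2/3 DKO, were analysed. The authors sequenced 5′ RACE products on a MiSeq and, per the submitters' processing notes, used bcl2fastq 2.20.0 and fastp 0.21.0, then assembled clones with MiXCR. They deposited, for each clone, a count of reads and its fraction of the TCRβ reads. All values come from the deposited counts. The deposited fraction was read but not tested. TCRα tables were not used. No reads were aligned anew.

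V and J calls were read from the first hit, with the allele removed. Shares have all TCRβ reads or clones of the library below them. Clones without a covered CDR3 (0.735% to 1.00% of reads) stayed in these totals. Segment and V-J pair counts were compared with the edgeR 4.0.16 quasi-likelihood test, scaled by library totals, over features with a total of at least 10, with Benjamini-Hochberg adjustment over all features. DESeq2 1.42.0 was an alternative. On simulated data, 100% of segments changed 4-fold were recovered by reads and 97.5% by clones (24 segments), as were 90% of changed V-J pairs by reads (285 pairs) and 97.6% by clones (269 pairs). The TRBV15 log2 fold changes of 0.44 by reads and 0.28 by clones are far smaller than a 4-fold change. Recovery of differences of that size was not tested. Other values were compared with exact permutation tests over labels or signs. Junction features count each clone once. Constant region calls named TRBC2 for 99.95% of TRBJ1 reads, so that the planned TRBC1 share is not given. The replicate labels do not say whether each library is from 1 mouse, so p-values measure the spread between these libraries.

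The members, lists and tests were chosen with earlier results of these data known. Named items follow a fixed rule: the 3 largest and the smallest J partner of each segment, its largest clone in each library, its 3 public chains with most reads, and its 3 nearest segments by usage and by J partner. Classes by clone size, CDR3 length and frame, the substitutions, and other J pairs named were chosen after their values were seen. Alternatives covered normalization, test, filters, depth, clone definition, frame, large clones, pairing by replicate number, and omission of single libraries. Tools were Python 3.11.15, numpy 2.4.6, pandas 2.3.3, scipy 1.17.1 and matplotlib 3.10.9.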

Additional observations from a re-analysis of the deposited data

How the results depend on the processing

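With 2 libraries per genotype, no permutation test here could pass 0.05, and counting error is small beside the spread between the Tet2/3 DKO libraries. Leaving out each library in turn, the log2 fold change of TRBV15 ran from -0.0019 to 0.78 by reads and from -0.038 to 0.54 by clones, and that of TRBV14 from -0.054 to 0.21 by reads and from -0.12 to 0.091 by clones. Member pairs called ran from 0 to 9 by clones and from 0 to 8 by reads, above 0 only without Tet2/3 DKO 1. Without Tet2/3 DKO 2, TRBV15 was at -0.013 by reads with the 10 largest clones of each library left out, and from 0.0031 to 0.017 with the largest or the 10 largest of each segment left out. By clones and without that library, TRBV15 was at -0.034 in frame and -0.29 out of frame, and TRBV14 at 0.079 and 0.33. By clones, TRBV14 turned to 0.00012 with TMM normalization and to 0.17 over out-of-frame clones, and TRBV15 to -0.0098 over out-of-frame clones. Under the other edgeR and DESeq2 settings for segment usage both segments kept their direction and no member was called. TRBV14 by reads fell to 0.026 by edgeR with the 10 largest clones of each segment left out. The mean TRBV14 shares of reads without its own 10 largest clones gave a log2 ratio of -0.016. The replicate numbers mark no stated link between libraries. Same-numbered libraries deviated together only weakly (r = 0.18 by reads and 0.23 by clones, across 24 segments). With the replicate block, TRBV15 was at 0.39 by reads (adjusted p = 0.182) and 0.25 by clones (adjusted p = 0.761), TRBV14 at 0.08 and -0.01, and 0 member pairs were called.

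Weighted by reads in place of clones, the Tet2/3 DKO minus WT difference of TRBV15 turned to -0.091 amino acids in CDR3 length and -0.083 bases between V and J, and the TRBV15 difference from other segments in bases between V and J turned to -0.096. The latter was -0.013 with clones of at least 2 reads. Leaving out each library in turn, signs also changed for TRBV14 CDR3 length between genotypes (-0.068 to 0.0041), the TRBV14 public share (-0.11 to 0.027 percentage points), TRBV15 CDR3 length (-0.034 to 0.055), TRBV15 bases between V and J between genotypes (-0.039 to 0.18) and against other segments (-0.049 to 0.073). The other feature comparisons kept their direction, but several moved by over 1.5 times. Weighted by reads, the genotype differences became -6.01 (TRBJ2 points, TRBV15), -3.05 (TRBJ2, TRBV14), -0.22 (CDR3 length, TRBV14), -0.55 (bases between V and J, TRBV14), 1.12 (in-frame points, TRBV15), -0.12 (in-frame, TRBV14) and -0.13 (public points, TRBV14), and the differences from other segments 1.67 (TRBJ2, TRBV15), 0.973 and -0.974 (in-frame, TRBV15 and TRBV14) and 0.459 and -8.36 (public, TRBV15 and TRBV14). Over the omissions of single libraries, genotype differences ran from -3.08 to -0.898 (TRBJ2, TRBV15), -2.08 to -0.153 (TRBJ2, TRBV14), -1.88 to -0.222 (public, TRBV15), -0.074 to -0.0011 (V bases lost, TRBV15) and -0.19 to -0.057 (bases between V and J, TRBV14), and the in-frame difference of TRBV14 from other segments from -0.70 to -0.31. Merging clones with the same V, J and CDR3 brought the latter to -0.30 and the TRBV14 genotype differences to -0.28 in frame, -0.070 bases between V and J and -0.015 amino acids. With clones of at least 2 reads they were -0.75 (TRBV14 in frame against others) and -0.0047 amino acids (TRBV14 between genotypes). The 10 largest clones of each segment, distinct chains, out-of-frame clones and the combined omissions of Tet2/3 DKO 2 were alternatives chosen after seeing the data. Public shares counted by chains follow the number of chains in each library, so that their differences between genotypes decide nothing about sharing. The causes were not tested.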
